A study of Homo sapiens with 4 samples.

Results

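The CLK and SRPK genes encode the kinases that phosphorylate SR proteins, the serine- and arginine-rich factors that mark exons for splicing. The skipped exons of CLK1, CLK2, CLK3, CLK4, SRPK1 and SRPK2 were taken from the study's exon inclusion files: an event was kept when its skipped exon shares a boundary with a GENCODE release 29 (hg38) exon of one of these genes. This gave 25 events at 24 skipped exons, of 42159 events listed for the control file and 42670 for the knockdown file. RNA was sequenced from MDA-LM2 cells, a human line selected from the breast cancer line MDA-MB-231 for its spread to the lung. Cells received small interfering RNAs against SNRPB2 (siSNRPB2, 2 libraries, with 2 selected siRNAs in the study and a knockdown above 95% by quantitative PCR) or a control siRNA (siCtrl, 2 libraries), all by lipid transfection and all harvested 48 h later. The target, SNRPB2, encodes U2B'', which is part of the U2 spliceosome particle; U2 binds the branch point near the end of an intron. Each event has 1 value per group of ψ, the fraction of transcripts in which the exon is kept, so the differences below have no replicate check and no test over samples. No event of SNRPB2 itself was found, so the knockdown was not checked here.

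CLK kinases act in the nucleus, where they release SR proteins from storage sites called speckles, whereas SRPK kinases act mainly in the cytoplasm and prepare SR proteins for import into the nucleus. The CLK genes are themselves controlled by splicing. Skipping of exon 4 shifts the reading frame ahead of the kinase domain, and transcripts of CLK1 and CLK4 that keep the introns beside exon 4 stay in the nucleus, where they can be spliced later on demand.

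The sequences around exon 4 are shown because this is the regulated exon of the CLK genes and because the intron end before it is where the U2 particle acts. They are from GENCODE release 29 transcripts (hg38), read in the direction of transcription, with intron bases in lower case and exon bases in capitals; transcripts that keep the intron supplied the last 40 intron bases (43 for the shorter form of CLK2). Exon 5 of CLK3 is added because its inclusion was called different.
CLK1 exon 4 (chr2:200860125-200860215, minus strand): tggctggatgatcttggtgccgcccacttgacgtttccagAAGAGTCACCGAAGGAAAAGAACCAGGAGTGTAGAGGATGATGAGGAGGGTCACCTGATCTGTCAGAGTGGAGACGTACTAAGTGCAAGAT
CLK4 exon 4 (chr5:178617344-178617434, minus strand): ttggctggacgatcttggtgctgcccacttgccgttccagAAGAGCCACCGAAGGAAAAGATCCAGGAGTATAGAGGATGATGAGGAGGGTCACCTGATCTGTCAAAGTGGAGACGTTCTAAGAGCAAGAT
CLK2 exon 4, 88 nt form (chr1:155268708-155268795, minus strand): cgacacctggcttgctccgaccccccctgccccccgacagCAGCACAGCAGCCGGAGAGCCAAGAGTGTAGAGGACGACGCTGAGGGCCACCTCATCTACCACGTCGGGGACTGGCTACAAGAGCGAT
CLK2 exon 4, 85 nt form (chr1:155268708-155268792, minus strand): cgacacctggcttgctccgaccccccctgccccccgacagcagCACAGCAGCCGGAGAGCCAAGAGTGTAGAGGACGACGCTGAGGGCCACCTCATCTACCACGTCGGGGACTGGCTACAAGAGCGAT
CLK3 exon 4 (chr15:74622120-74622216, plus strand): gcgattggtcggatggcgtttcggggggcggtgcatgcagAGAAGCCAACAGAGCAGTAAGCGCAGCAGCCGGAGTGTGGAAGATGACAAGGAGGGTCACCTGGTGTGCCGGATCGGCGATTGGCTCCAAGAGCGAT
CLK3 exon 5 (chr15:74622494-74622560, plus strand): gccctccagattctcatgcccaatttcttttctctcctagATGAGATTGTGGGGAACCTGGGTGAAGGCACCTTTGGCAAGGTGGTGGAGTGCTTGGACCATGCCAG

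Exon 4 is coding in all 4 CLK genes, and each of its 5 forms has a length that leaves a remainder of 1 after division by 3, so that its loss shifts the frame. CLK1 and CLK4 share 85 of the 91 bases of exon 4 (93.4%). The exon that follows is 67 nt long in all 4 genes, with 54 identical bases between CLK1 and CLK4 and 41 between CLK1 and CLK2. The exon ends in GAT and the intron after it opens with gtatag in CLK1 and CLK4, gtacaa in CLK2 and gtacag in CLK3. The acceptors differ more. In the last 20 intron bases, pyrimidines (C or T) numbered 13 in CLK1, 14 in CLK4 and 15 before the 88 nt form of CLK2, but 7 in CLK3. Among 4953 tested exons of the series whose intron end lies in an annotated transcript and closes with AG, the median was 13, and 1.19% had 7 or fewer. CLK2 has a tandem acceptor, CAGCAG, which allows the exon to start at either of 2 places 3 nt apart. An AG lay at the same distance inside the exon (NAGNAG, read on the transcribed strand only) in 327 of these 4953 exons (6.60%).

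**Figure D1:**
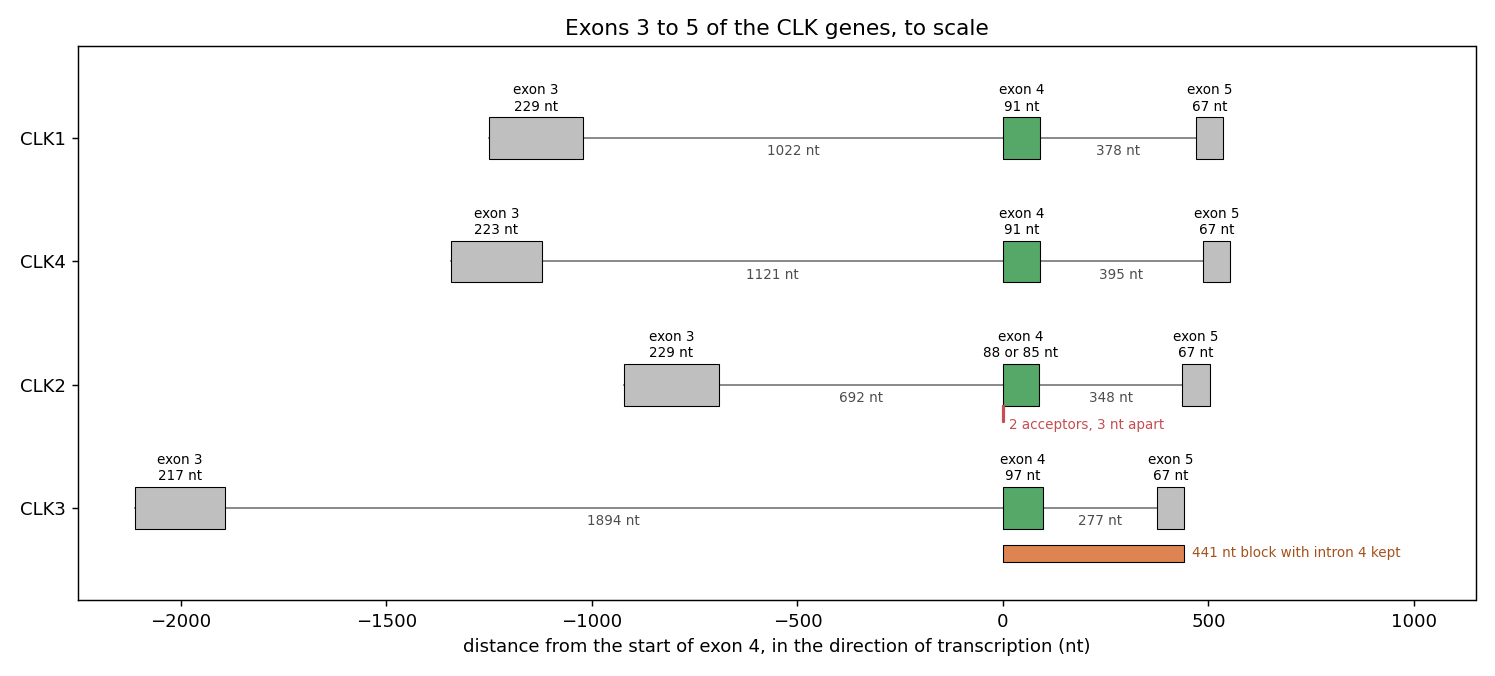
Exons 3 to 5 of CLK1, CLK4, CLK2 and CLK3, drawn to scale in nt from the start of exon 4, with exon 4 in green, its neighbours in grey and introns as lines. The intron after exon 4 is short in all 4 genes (277 to 395 nt), CLK2 has 2 acceptors for exon 4, and the 441 nt block of CLK3 is exon 4, intron 4 and exon 5 kept together.

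Reads that fit only the isoform with the exon (inclusion-only) or only the isoform without it (exclusion-only) were called informative. Of the 24 exons, 19 had at least 20 informative reads in each file, from 20 to 6403 reads per file, and were tested. An exon was called different when the authors' deposited table lists a Bayes factor (the evidence for a difference over none) of 10 or more together with a ψ difference of 0.1 or more. By this rule 1 of the 19 exons was called lower in siSNRPB2, in CLK2, and 1 was called higher, in CLK3. Of all 18682 tested exons of the series, 7.61% were called lower, 7.13% higher and 14.7% in either direction, so the kinase genes did not stand out by their number of calls. The median ψ difference was 0 over the 19 exons and 0 over all exons, and the median size of the difference 0.02 and 0.03. The deposited ψ intervals of the 2 files did not overlap for 2 of the 19 exons, against 20.8% of all tested exons. Many of these exons left little room to move in one direction: 5 exons had a ψ of 0.95 or more in each file and 5 a ψ of 0.1 or less in each.

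**Figure D2:**
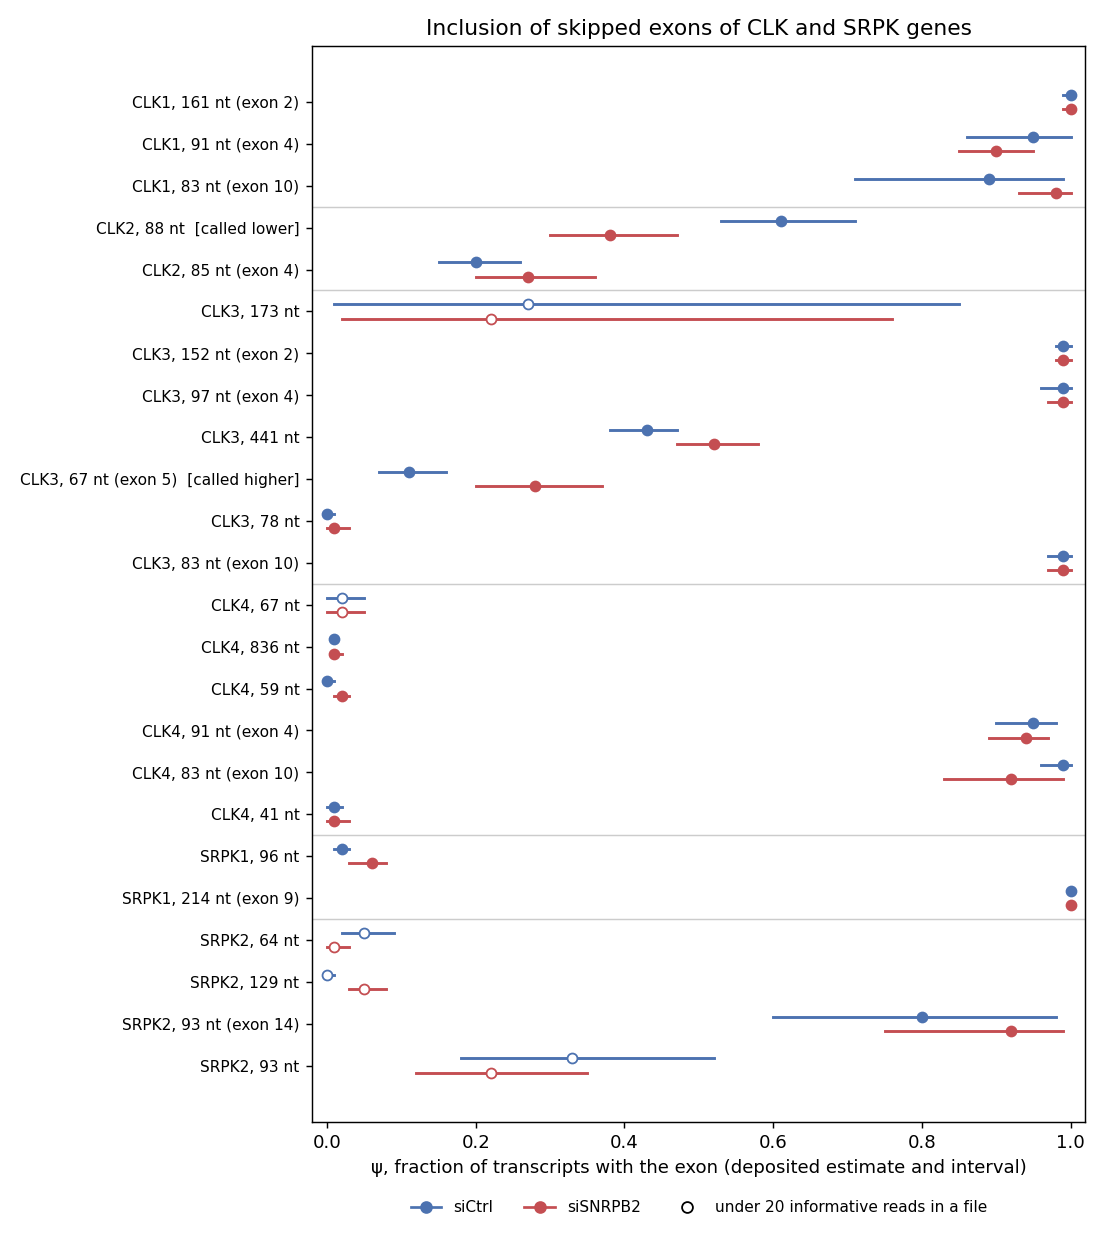
ψ of each of the 24 skipped exons (deepest event per exon, in order of transcription within a gene) in siCtrl (blue) and siSNRPB2 (red), with the deposited interval as a line; open points had under 20 informative reads in a file. The intervals of the 88 nt form of CLK2 exon 4 (0.30 to 0.47 and 0.53 to 0.71) and of CLK3 exon 5 (0.20 to 0.37 and 0.07 to 0.16) are apart, whereas exon 4 of CLK1 and CLK4 overlaps.

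CLK2 had the lower call. The 88 nt form of exon 4, which starts at the first AG of the tandem acceptor, had a ψ of 0.38 in siSNRPB2 (interval 0.30 to 0.47) and 0.61 in siCtrl (0.53 to 0.71), and the authors' deposited table lists 242.47 as its Bayes factor. The 85 nt form, which starts at the second AG, had a ψ of 0.27 (0.20 to 0.36) and 0.20 (0.15 to 0.26), and a Bayes factor listed as 0.32 by the authors' deposited table. The longer form was thus lower and the shorter form was not called. The forms share their reads: each window held 1454 reads in siSNRPB2 and 1706 in siCtrl, with the same exclusion-only reads (5 and 13) and the same reads that fit either isoform (526 and 649). Inclusion-only reads numbered 75 and 170 for the 88 nt form but 49 and 47 for the 85 nt form. The 88 nt form therefore had 26 more such reads than the 85 nt form in siSNRPB2 and 123 more in siCtrl, or 1.79% and 7.21% of the reads in the window.

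The share of reads that skip CLK2 exon 4 gave no such difference. Of informative reads, 93.8% were inclusion-only for the 88 nt form in siSNRPB2 (75 of 80; exact 95% interval 86.0 to 97.9, counting error only) and 92.9% in siCtrl (170 of 183; 88.2 to 96.2), and Fisher's exact test (2-sided, Benjamini-Hochberg over all tested exons) gave an adjusted p of 1. For the 85 nt form the shares were 90.7% (79.7 to 96.9) and 78.3% (65.8 to 87.9), adjusted p = 0.321 by the same exact test. The ψ difference of the 88 nt form thus rests on inclusion-only reads set against the flanking reads that fit either isoform, 14.3 per 100 such reads in siSNRPB2 and 26.2 in siCtrl. The chi-square of that change was 16.6. Its median was 4.47 over 4455 near-constitutive exons of the series (ψ from 0.95 upward in each group, exclusion-only reads absent), which is 9.83 times the expectation for independent reads. This number is called the noise factor below; it can hold real group differences and also the clumping of reads.

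**Figure D3:**
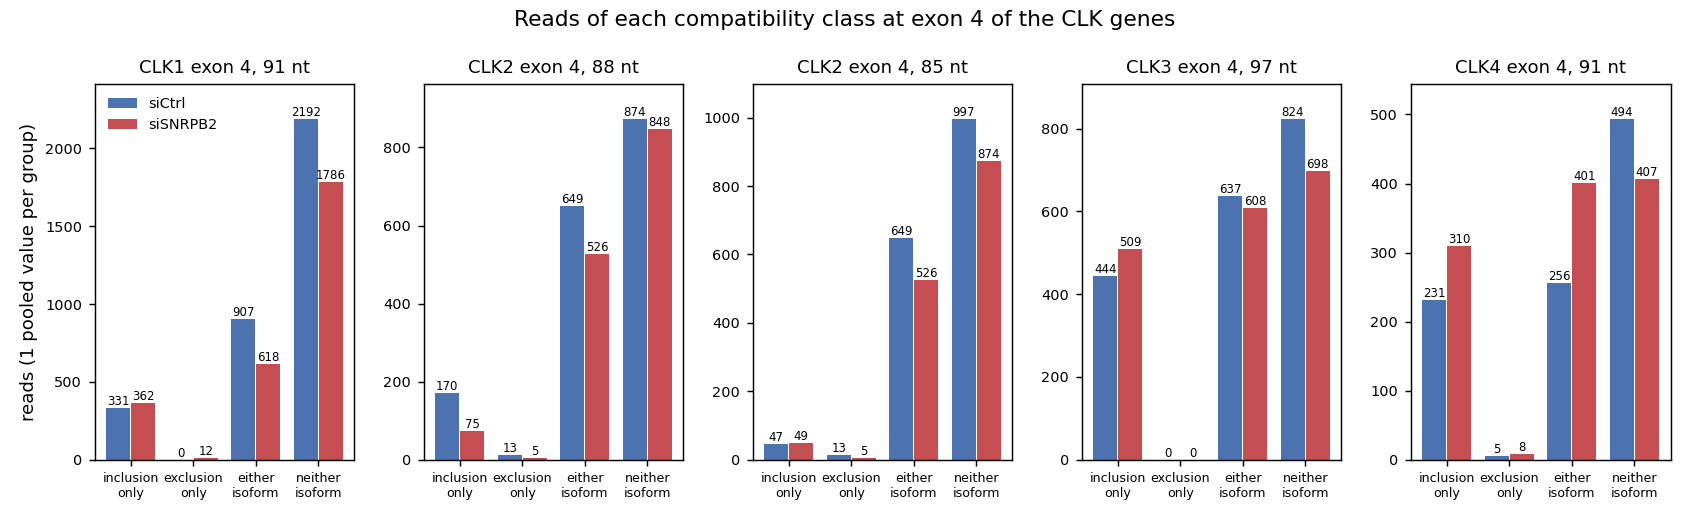
Reads of each compatibility class at exon 4 of the CLK genes in siCtrl (blue) and siSNRPB2 (red), 1 pooled value per group, with the number of reads above each bar. Inclusion-only reads of the 88 nt form of CLK2 were 170 and 75, those of the 85 nt form 47 and 49, and exclusion-only reads were few in every panel (0 to 13).

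CLK3 had the higher call, one exon further on. Exon 5, in the event that joins exon 3 to exon 6 and does not contain exon 4, had a ψ of 0.28 in siSNRPB2 (0.20 to 0.37) and 0.11 in siCtrl (0.07 to 0.16). Both isoforms of this event lack exon 4, so this ψ is not the share of all CLK3 transcripts that keep exon 5. The junction of exon 3 to exon 5 is the skipping junction of exon 4, which had 0 exclusion-only reads in both files. The inclusion-only reads of exon 5 can therefore come from transcripts that keep exon 4 or from unspliced RNA. This ψ thus does not measure how often exon 5 is kept in transcripts without exon 4. The call passed narrowly: the authors' deposited table gives 10.5 for its Bayes factor, and the inclusion-only reads were 48 and 20, at the read minimum. No exclusion-only read was seen in either file, so the value rests on 742 and 779 reads that fit either isoform, and its chi-square against them was 12.4. A 441 nt block in the same place, which keeps intron 4 between exons 4 and 5, had a ψ of 0.52 (0.47 to 0.58) and 0.43 (0.38 to 0.47), on 594 and 513 inclusion-only reads. These reads can include reads of exon 4 or exon 5 from spliced transcripts, so this ψ does not measure how often intron 4 is kept. The block was not called, with 1.75 as the Bayes factor listed in the authors' deposited table. Exon 4 itself was nearly always kept, at 0.99 in both files, on 509 and 444 inclusion-only and 0 exclusion-only reads, which allows an exclusion-only share of up to 0.589% in siSNRPB2 and 0.676% in siCtrl. The 3 events overlap and share reads, so they are not separate observations.

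The remaining tested CLK3 exons had ψ values within 0.01 between the files. Exon 2 (152 nt) stood at 0.99 in both files and exon 10 (83 nt) at 0.99 in both. A 78 nt exon found only in a transcript annotated for nonsense-mediated decay stood at 0.01 and 0.00, with 61 and 162 exclusion-only reads and no inclusion-only read. A 173 nt non-coding exon had no informative reads and was not tested.

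CLK1 kept exon 4 in most transcripts, with a ψ of 0.90 in siSNRPB2 (0.85 to 0.95) and 0.95 in siCtrl (0.86 to 1.00), and the authors' deposited table lists 0.27 as its Bayes factor. The skipping junction was nevertheless read in only 1 file. Exclusion-only reads were 12 of 374 informative reads in siSNRPB2 (3.21%, exact 95% interval 1.67 to 5.54) and 0 of 331 in siCtrl, which allows a share of up to 0.906%. Fisher's exact test gave an adjusted p of 0.00467 over all tested exons, and 1 with reads divided by the noise factor. That division leaves too few skipping reads to decide. The change in the share was under the 0.1 asked for a call. Exon 2 of CLK1 (161 nt) was at 1.00 in both files, on 816 and 1092 inclusion-only reads. Exon 10 (83 nt) was at 0.98 (0.93 to 1.00) and 0.89 (0.71 to 0.99), with 102 and 51 inclusion-only reads, 45 and 90 reads of either isoform and no exclusion-only read; the intervals overlap.

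In CLK4, whose exon 4 is nearly the same in sequence, both files held skipping reads. Its ψ was 0.94 in siSNRPB2 (0.89 to 0.97) and 0.95 in siCtrl (0.90 to 0.98), and exclusion-only reads were 8 of 318 and 5 of 236 informative reads (exact test, adjusted p = 1). Whether exon 4 responded differently in CLK1 and CLK4 was not tested. Exon 10 of CLK4 was at 0.92 (0.83 to 0.99) and 0.99 (0.96 to 1.00), where skipping was seen in 3 reads of siSNRPB2 and 0 of siCtrl (exact test, adjusted p = 0.38).

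Between exons 2 and 3, CLK4 has rarely used exons that share their 5' splice site at chr5:178619838 and are found in transcripts annotated as nonsense-mediated decay or retained intron. For the 836 nt exon, siSNRPB2 gave 59 reads with it and 83 without it, and siCtrl 35 and 136. Inclusion-only reads were thus 41.5% (exact 95% interval 33.3 to 50.1) and 20.5% (14.7 to 27.3) of informative reads, and by Fisher's exact test the adjusted p was 7.52e-04. ψ, which takes in the length of the exon and 1652 and 1436 reads that fit either isoform, was 0.01 in both files. The 59 nt exon at the same place had 5 inclusion-only reads in siSNRPB2 and 1 in siCtrl (ψ 0.02 and 0.00; exact test, adjusted p = 0.162). The region also overlaps RN7SKP70, an annotated copy of the 7SK RNA, and reads of that copy were not told apart. Reads of unspliced RNA inside the 836 nt exon count as inclusion-only too and were not told apart either. Reads that fit neither isoform numbered 161 per kb of intron in siSNRPB2 and 138 in siCtrl. Inclusion-only reads of the 836 nt exon were 3.57 and 2.44 per 100 reads that fit either isoform, with a chi-square of 3.15. The 41 nt exon after exon 10 stood at 0.01 in both files, and a 67 nt exon had no informative reads in either.

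SRPK1 has a 96 nt exon at chr6:35904879-35904974 between long introns (15493 and 13865 nt), partly coding and present in 2 transcripts. Inclusion-only reads were 25 in siSNRPB2 and 12 in siCtrl, and exclusion-only reads 44 and 70. The inclusion-only share was thus 36.2% (exact 95% interval 25 to 48.7) and 14.6% (7.80 to 24.2), with an adjusted p of 0.0167 by Fisher's exact test. ψ was 0.06 (0.03 to 0.08) and 0.02 (0.01 to 0.03), under the difference asked for a call, and the authors' deposited table lists a Bayes factor of 1.61. Inclusion-only reads of this event were 4.69 and 1.39 per 100 reads that fit either isoform, with a chi-square of 13.1. They can hold reads of unspliced RNA, which were not told apart. Reads that fit neither isoform numbered 95.4 per kb of intron in siSNRPB2 and 105 in siCtrl. In the other event of this exon, with a longer downstream exon, inclusion-only reads were 6 and 7 and ψ 0.02 and 0.01. The 214 nt exon 9 of SRPK1 had the most reads of all, 4550 and 6403 inclusion-only and 0 exclusion-only, and stood at 1.00 in both files.

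By the rule on read shares (adjusted p under 0.05 by Fisher's exact test and a share different by at least 0.1), the 836 nt exon of CLK4 and the 96 nt exon of SRPK1 were the 2 of 19 that passed, both higher in siSNRPB2, against 10.6% of all tested exons. Neither was called by ψ, and the inclusion-only reads of both can hold reads of unspliced RNA. The lower ψ call, in CLK2, did not pass this test. The higher ψ call, in CLK3, could not pass it: exclusion-only reads were absent from both files, so its share was 100% in each. Exclusion-only reads were absent from both files for 9 of the 19 exons, whose shares therefore could not differ. How many of all tested exons were limited in this way was not counted, so the 2 of 19 and the 10.6% are not closely comparable. This test compares 2 pools of reads, not the conditions. After dividing reads by the noise factor, 0 of the 19 passed Fisher's exact test and 0 had an unadjusted p under 0.05. Of all tested exons, 0.0214% passed. The division leaves so few reads per exon that a failure to pass cannot decide whether a share differed.

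SRPK2 had 1 tested exon. Exon 14 (93 nt, chr7:105126248-105126340) was at 0.92 in siSNRPB2 (0.75 to 0.99) and 0.80 in siCtrl (0.60 to 0.98), with 71 and 55 inclusion-only and no exclusion-only reads. The difference of 0.12 is past the size asked for a call but the Bayes factor listed in the authors' deposited table was 0.51, and the intervals overlap over most of their width. The other 3 exons had too few informative reads to be tested. Among these a 129 nt exon of a non-coding transcript, at chr7:105206401-105206529, had 12 inclusion-only reads in siSNRPB2 and 0 in siCtrl, beside 361 and 414 reads that fit either isoform. Its ψ was 0.05 (0.03 to 0.08) and 0.00 (0.00 to 0.01), and 29.92 was its Bayes factor in the authors' deposited table. A 64 nt exon went the other way, with 0 and 8 inclusion-only reads and a ψ of 0.01 (0.00 to 0.03) and 0.05 (0.02 to 0.09). The second 93 nt exon stood at 0.22 (0.12 to 0.35) and 0.33 (0.18 to 0.52), on 10 and 11 inclusion-only reads.

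Neither-isoform reads, which match neither form of an event, include those from unspliced introns, the form in which CLK1 and CLK4 transcripts are known to be held back, and reads of isoforms outside the event. Around exon 4 of CLK1 they were the largest class, 1786 in siSNRPB2 and 2192 in siCtrl. This is 1.80 and 1.77 reads for each compatible read (one that fits either or both isoforms), a log2 ratio of 0.02 (95% interval -0.13 to 0.17, counting error only). Per kb of intron they numbered 1276 and 1566 in this window, more than around exon 2 (231 and 186) and exon 10 (77.2 and 173) of the same gene. Around exon 4 of CLK4 the count was 407 and 494, or 0.57 and 1.00 for each compatible read, a log2 ratio of -0.83 (-1.08 to -0.58; -1.61 to -0.04 after division of the reads by the noise factor). The compatible reads below the line were 719 in siSNRPB2 and 492 in siCtrl. Around exon 4 of CLK3 the log2 ratio was -0.29 (-0.48 to -0.10; -0.88 to 0.31 with the noise factor). Around exon 4 of CLK2 it was 0.41 (0.21 to 0.62) for the 88 nt form and 0.10 (-0.11 to 0.31) for the 85 nt form, and the noise factor widened both intervals past 0. For the 88 nt form neither-isoform reads were 848 in siSNRPB2 and 874 in siCtrl. Its compatible reads, which hold the fall in its inclusion-only reads, were 606 and 832. The 2 forms share a window, so their ratios are not separate observations.

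Over all 25 kinase events the median log2 ratio was -0.15 and 11 were above 0, whereas over 33041 events of the series the median was 0.15 and 61.4% were above 0. The kinase genes differed from one another and within themselves. CLK3 had 1 of 7 events above 0 (-0.49 to 0.09) and CLK4 2 of 6 (-0.83 to 0.12). CLK1 ran from -1.22 around exon 10 to 0.73 around exon 2, and SRPK2 from -0.76 to 0.73. Both events of the 96 nt exon of SRPK1, which share most of their reads, were higher in siSNRPB2 (0.52 and 0.63), with 2800 against 3072 neither-isoform reads but 602 against 947 compatible reads in the deeper event. With the noise factor the interval lay apart from 0 for 4 of the 25 events: CLK1 exon 2 (0.13 to 1.33), both SRPK1 events and CLK4 exon 4. The share of all events with such an interval was not counted. The median of all events, 0.15, lay inside the intervals of CLK1 exon 2 and of both SRPK1 events (0.003 to 1.04 and 0.11 to 1.14). It lay outside that of CLK4 exon 4. Events of a gene overlap and are not replicates.

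**Figure D4:**
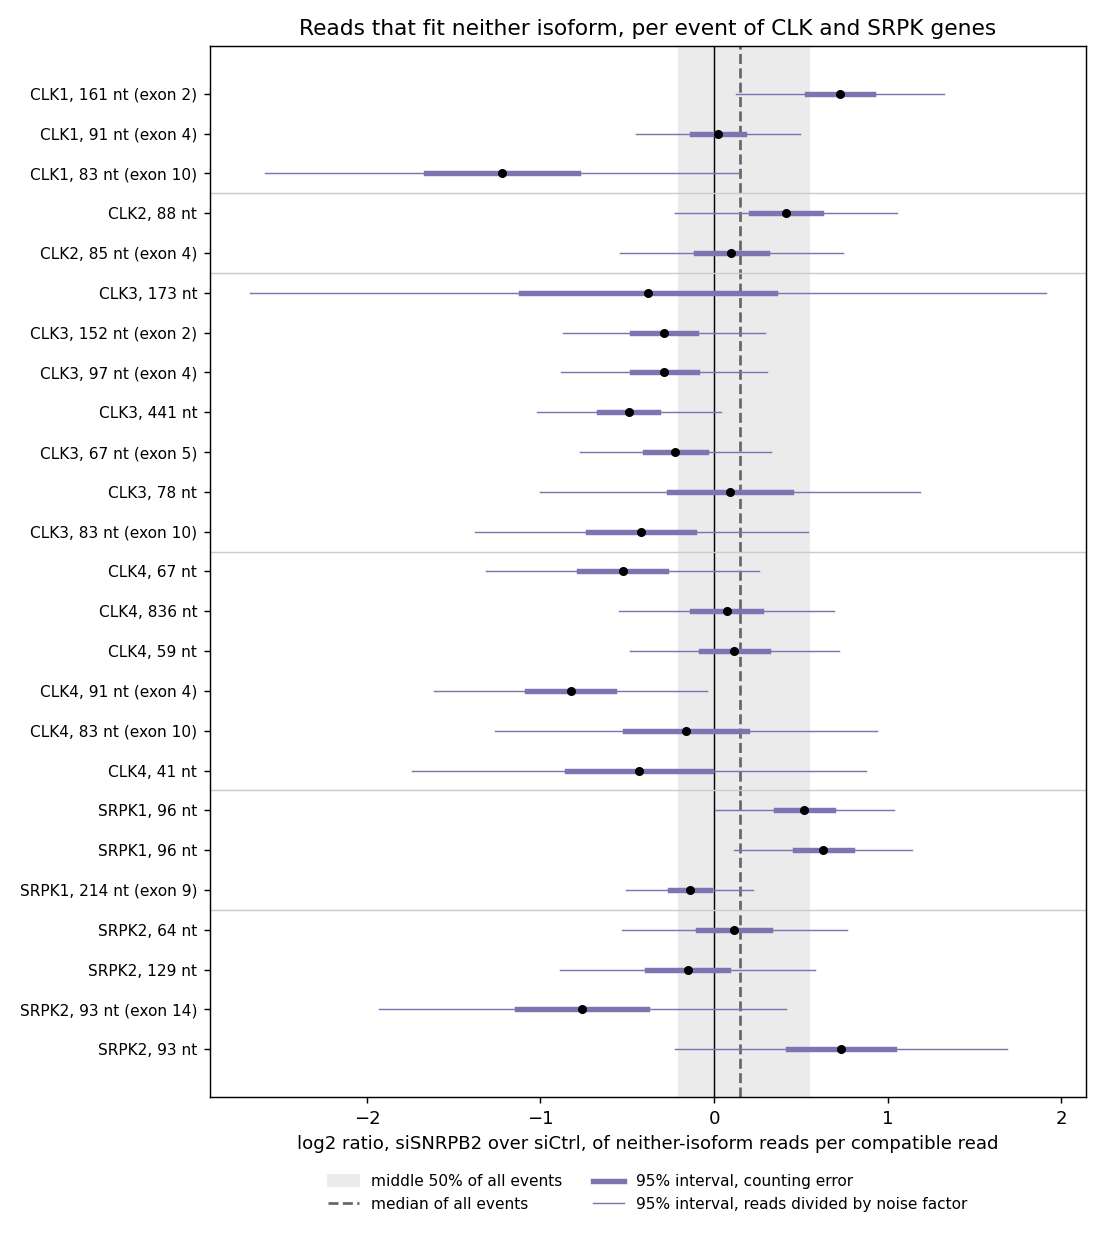
Log2 ratio, siSNRPB2 over siCtrl, of reads that fit neither isoform per compatible read, for the 25 events (points), with 95% intervals for counting error (thick) and with reads divided by the noise factor (thin). The dashed line is the median of all events (0.15) and the grey band the middle 50% of them (-0.20 to 0.55); CLK3 events lie mostly left of 0, and CLK1 spans from -1.22 to 0.73.

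Compatible reads on the deepest event of each gene, scaled to the group's total over 1 event per gene (RPM), served as a proxy of its level. CLK1 had 85.6 RPM in siSNRPB2 and 101 in siCtrl, CLK2 37.2 and 45.2, and SRPK1 499 and 574. CLK3 had 82.0 and 70.2, CLK4 110 and 87.3, and SRPK2 33.1 and 30.2. Thus 3 genes were lower and 3 higher, where 51.4% of 10428 genes were above 0. The CLK2 level came from the event of the 88 nt form, so it holds the same fall in inclusion-only reads as the lower call. Its compatible reads were 606 in siSNRPB2 and 832 in siCtrl, against 580 and 709 in the event of the 85 nt form. The log2 ratios (pseudocount of 1) ran from -0.28 in CLK2 to 0.33 in CLK4, beside an SD of 0.78 over all 10428 genes and of 0.26 over the 3405 with at least 1000 reads on average, which leave out CLK2 and SRPK2. With reads divided by the noise factor the 95% interval stayed apart from 0 for CLK4 (0.03 to 0.64) and SRPK1 (-0.33 to -0.07), and not for CLK1, CLK2, CLK3 or SRPK2. How many of the 10428 genes had such an interval was not counted. The noise factor was measured on reads within exons, not on levels of genes, so it may not cover the spread of levels. In total RNA from bulk cultures, fewer cells with a transcript and less of it per cell cannot be told apart.

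Other genes of the pathway were counted by the same rule. Of 43 tested exons of SR proteins and related substrates, 5 were called lower and 3 higher (18.6% in either direction, against 14.7% of all tested exons). They included SRSF10, a splicing repressor activated by dephosphorylation (ψ 0.72 in siSNRPB2 and 0.96 in siCtrl), the poison exon of TRA2B, through which this splicing activator limits its own level (0.63 and 0.42), and a pair of neighbouring exons of SRSF11 (0.04 and 0.20, and 0.01 and 0.17). Of 57 exons of other kinases of splicing factors, 5 were lower and 11 higher (28.1%, against the same 14.7%). AKT2 alone held 6 of these 16, each overlapping another of them. The 2 calls in AKT1 overlap as well, and so do the 2 higher calls in CDK11B. The 16 calls are therefore not separate observations. DYRK3, a kinase that dissolves speckles, had an exon at 0.88 and 0.35. CSNK2A1, the catalytic subunit of casein kinase II, had one at 0.95 and 0.52 for which skipping reads were absent from the files, and AKT2 one at 0.47 and 0.90. Of 26 exons of phosphatases and import factors, 2 were lower and 0 higher (7.69%, against 14.7%), in PPP2R1A, the scaffold subunit of phosphatase 2A (0.01 and 0.13), and PPP1CC, a catalytic subunit of phosphatase 1 (0.01 and 0.11). The median ψ difference was 0 in each of the 3 lists.

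The event files held 93580246 reads in siSNRPB2 and 100579230 in siCtrl over all classes, with a read counted again in each event it overlaps. The median tested kinase exon had 112 and 171 informative reads, against 137 and 158 over all tested exons. Of the line's mesenchymal-type markers 5 of 8 had a measured event, led by CD44 with 38883 and 50227 compatible reads, beside 3 of 6 luminal, 3 of 7 epithelial (10 to 479 reads) and 1 of 4 blood and endothelial markers (PTPRC, 8 and 51 reads). A gene without a skipped-exon event cannot be seen in such files.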

How the data were processed

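Total RNA libraries (SMARTer stranded total RNA kit, per the labels' protocols) were processed with STAR 2.7 and hg38, both named in the submitters' processing notes. Per the file headers, the authors estimated exon inclusion with MISO and deposited ψ as a fraction with an interval, and reads per class as counts in text. Their deposited comparison gives the ψ difference as a score from -1 to 1 and the Bayes factor as a ratio. The sources used here do not give the MISO version, event annotation, interval level or strand setting, nor how the 2 libraries behind each group's single value were combined.

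The deepest event by informative reads was used for each skipped exon. Genes came from GENCODE 29 by shared exon boundary (95.7% of skipped exons were annotated exons). P-values of Fisher's exact test were adjusted (Benjamini-Hochberg) across the 18682 tested exons. This step was tried on simulated independent reads, which lack the clumping that the noise factor can hold. The simulation therefore does not give the rate of false calls in these data. Exact intervals and those of log2 ratios (normal, from counts) cover counting error only. A count of 0 was taken to allow 3 counts. Reads per gene needed at least 20 on average. The kinase genes, lists and thresholds were chosen with earlier results of these data known. All tested exons of the 6 genes are described, and up to 3 genes per list, those with the largest called ψ difference. No gene was named for a like pattern, since 2 pooled values cannot rank likeness. Alternatives changed the thresholds, estimator, event and scaling. Scripts ran in Python 3.11.15 with scipy 1.17.1, pandas 2.3.3, matplotlib 3.10.9 and numpy 2.4.6.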

Additional observations from a re-analysis of the deposited data

How the results depend on the processing

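The lower call in CLK2 stayed with at least 10 or 50 informative reads, a Bayes factor of at least 100, a ψ difference of at least 0.05 or 0.2, the median over all events of an exon, and when an exclusion-only read was required. These settings reuse the same ψ, and its values fix their outcome. Informative reads were 80 and 183, the ψ difference -0.23 and exclusion-only reads 5 and 13. The authors' deposited table lists a Bayes factor of 242.47, and the exon has no other event. By read shares with Fisher's exact test 0 exons were lower, and the difference of the 88 nt form of CLK2 exon 4 turned to 0.00854; its share leaves out the reads of either isoform. The higher call in CLK3 gave way to 0 exons with at least 50 informative reads, with a Bayes factor of at least 100, with a ψ difference of at least 0.2 and where an exclusion-only read was required; its Bayes factor in the authors' deposited table was 10.5, its informative reads 48 and 20, its ψ difference 0.17 and its exclusion-only reads 0. By read shares 2 exons were higher, in CLK4 and SRPK1, and 0 of these 2 passed with reads divided by the noise factor. The number of kinase genes with a neither-isoform ratio above the median of all genes was 3, 2 with reads summed over all events and 3 with informative reads alone below the line; the ratios of single genes moved more than these counts show. Summing over events turned the sign in SRPK2 (0.73 to -0.02), CLK4 (0.07 to -0.18) and SRPK1 (-0.14 to 0.23), and moved CLK1 from 0.73 to 0.12 and CLK3 from -0.49 to -0.29. With informative reads alone below the line CLK2 moved from 0.41 to 1.15, CLK4 from 0.07 to 0.50 and SRPK2 from 0.73 to 0.01. The direction of the level held for all 6 genes under each scaling tried. No paired analysis was possible because each group has 1 pooled value per event, and no library could be left out for the same reason. Skipping reads were absent from both files for 9 of the 19 tested exons; the share that this allows in siCtrl ran from up to 0.0469% at exon 9 of SRPK1, the deepest, to up to 15% at exon 5 of CLK3.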
